A study of Mus musculus with 16 samples.

Results

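Cadherins and catenins build the adherens junctions that hold cells together, and here RNA polymerase II (Pol II) and monoubiquitylated histone H2B (H2Bub1) were followed on their genes in mouse cells with and without Atxn7l3. The genes were chosen by symbol, as all autosomal protein-coding genes named Cdh followed by a number or starting with Ctnn, which gave 32 of 20807 genes. Of these, 23 were cadherins and 9 carried a Ctnn symbol. Their lengths ran from 10.1 kb (Cdh24) to 1574 kb (Ctnna3), with a median of 140.4 kb against 17.6 kb over all autosomal protein-coding genes.

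Classical cadherins bind the same cadherin on the neighbouring cell through calcium-dependent outer domains. Inside the cell, p120 (Ctnnd1) and β-catenin (Ctnnb1) bind the cadherin tail, and α-catenin (Ctnna1) links β-catenin to actin. β-catenin also enters the nucleus and serves Wnt signalling as a partner of TCF factors. E-cadherin (Cdh1) is typical of pluripotent and epithelial cells, and N-cadherin (Cdh2) and cadherin 11 (Cdh11) are typical of mesenchymal cells. H2Bub1 is laid down over transcribed genes and is removed by ubiquitin proteases that need the adaptor ATXN7L3.

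The libraries analysed came from chromatin immunoprecipitation and sequencing (ChIP-seq) with an antibody against H2Bub1 or against RPB1, the largest Pol II subunit. WT (Atxn7l3+/+) and Atxn7l3-/- cells (KO in the plots) were compared in embryonic stem cells of the mouse (mESCs) and in fibroblasts of mouse embryos (MEFs), all of the strain DBA/2 x C57BL/6. The mESCs grew with leukaemia inhibitory factor, PD0325901 (1 uM), CH99021 (3 uM) and 15% foetal calf serum, and the MEFs, from E10.5 embryos without head and gut, in 10% serum. The null allele was present in every cell of the animal, so it acted before the MEFs were made, and the Atxn7l3-/- MEF cultures are described by the study as holding many round cells. Each of the 8 groups was 1 library. The differences below are therefore differences between libraries, no spread between replicates can be set beside them, and no test was run.

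The value of a promoter is the fold enrichment that the authors' peak caller gave to the highest Pol II peak touching the 1000 bp on either side of the transcription start site (TSS), as a ratio to the library's own background. The value of H2Bub1 is the share of the gene, from TSS to end, lying inside H2Bub1 peaks. Neither sets an absolute level between libraries, and the read depth is unknown. The study's methods place a scaling of the libraries before peak calling, by reads in intergenic regions for H2Bub1 and by total reads for Pol II. How it entered the calls, and with them the covered shares, is not given in the sources used here. The Pol II lists were shorter in Atxn7l3-/- than in WT cells (11963 against 17074 peaks in mESCs and 32232 against 45870 in MEFs), and the H2Bub1 lists were longer (48952 against 40979 and 28856 against 19725). Whatever made the lists differ in length moves with the genotype, and its part in the differences below was not tested. Counts of members are therefore given beside the same percentage over all autosomal protein-coding genes, called the background.

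The cells carried the markers of their labels. All 5 pluripotency markers (Pou5f1, Sox2, Nanog, Tfcp2l1 and Zfp42) had a Pol II promoter peak in both mESC libraries, and all 5 fibroblast markers (Col1a1, Col1a2, Thy1, Twist2 and Pdgfra) in both MEF libraries, where mESCs had 0. In addition Tfcp2l1 had a peak in Atxn7l3-/- MEFs (7.08). Of 5 mesothelial markers, Pol II lay at the promoter of 0 in WT and of 4 in Atxn7l3-/- MEFs, with summed fold enrichments of 0 and 78.4. They were Upk1b (38.6), Upk3b (18.1), Wt1 (11.6) and Msln (10.2), and Krt19 had none. The mean H2Bub1 share of the same 5 genes was 0% and 65.9%. The summed fold enrichment of the fibroblast markers was 118.2 in WT and 66.5 in Atxn7l3-/- MEFs. Differences between the MEF libraries below therefore go along with a difference in these markers, and its part in them was not tested. In such bulk samples a change in the number of cells of a kind and a change in the signal of each cell cannot be told apart. Of 5 epithelial markers, 0 had Pol II at the promoter in either MEF library and 1 (Epcam) in each mESC library. Endothelial markers were occupied at 2 and 0 of 5 in WT and Atxn7l3-/- mESCs and at 2 and 1 in MEFs, muscle markers at 1 and 0 and at 0 and 0, nerve markers at 1 and 0 and at 1 and 1, and blood markers, of 4, at 0 and 0 and at 2 and 2. The deleted gene Atxn7l3 itself carried Pol II at its promoter in all 4 lists (3.61 and 3.71 in mESCs, 20.9 and 23.4 in MEFs). The study's construct has its loxP sites around exons 2 to 12 and its FRT sites around a cassette in intron 2. The study describes the null allele as made by FLP recombination, and whether exons 2 to 12 are absent in these cells was not tested. In each of the 4 annotated transcripts with these exons, 2745 bp (chr11:102291898-102294642) lie in the span of exons 2 to 12. H2Bub1 peaks covered 100% of them in WT and 0.401% in Atxn7l3-/- mESCs, and 9.65% and 7.43% in MEFs, where the WT share was itself low. Pol II peaks covered 23.9% and 13.7% in mESCs and 7.03% and 0% in MEFs. H2Bub1 covered 62.5% of the whole gene in Atxn7l3-/- mESCs against 100% in WT, and 65.3% against 22.03% in MEFs.

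Pol II was found at the promoters of 17 of the 32 genes in at least 1 library. In mESCs, 9 had a peak in WT (background 35.3%) and 7 in Atxn7l3-/- cells (background 32.1%). In MEFs, 15 had a peak in WT (background 55.3%) and 10 in Atxn7l3-/- cells (background 52.3%). The cadherins were mostly unoccupied, with 14 of 23 having no promoter peak in any library (background 41.1%), whereas this held for 1 of 9 Ctnn genes, Ctnnb1. Its gene record begins 4184 bp before its first RefSeq start, where Pol II was found in every library. These counts therefore score Ctnnb1 as unoccupied because of its record. Of the 9 WT mESC peaks, 2 had no counterpart in Atxn7l3-/- cells (background 22.8%), and of the 15 WT MEF peaks 5 had none (33.3%, exact Clopper-Pearson 95% interval 11.8% to 61.6%, background 8.01%). This interval covers counting error only. No gene had a promoter peak in Atxn7l3-/- cells alone, with 0 of 23 in mESCs (background 7.49%) and 0 of 17 in MEFs (background 3.37%).

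**Figure D1:**
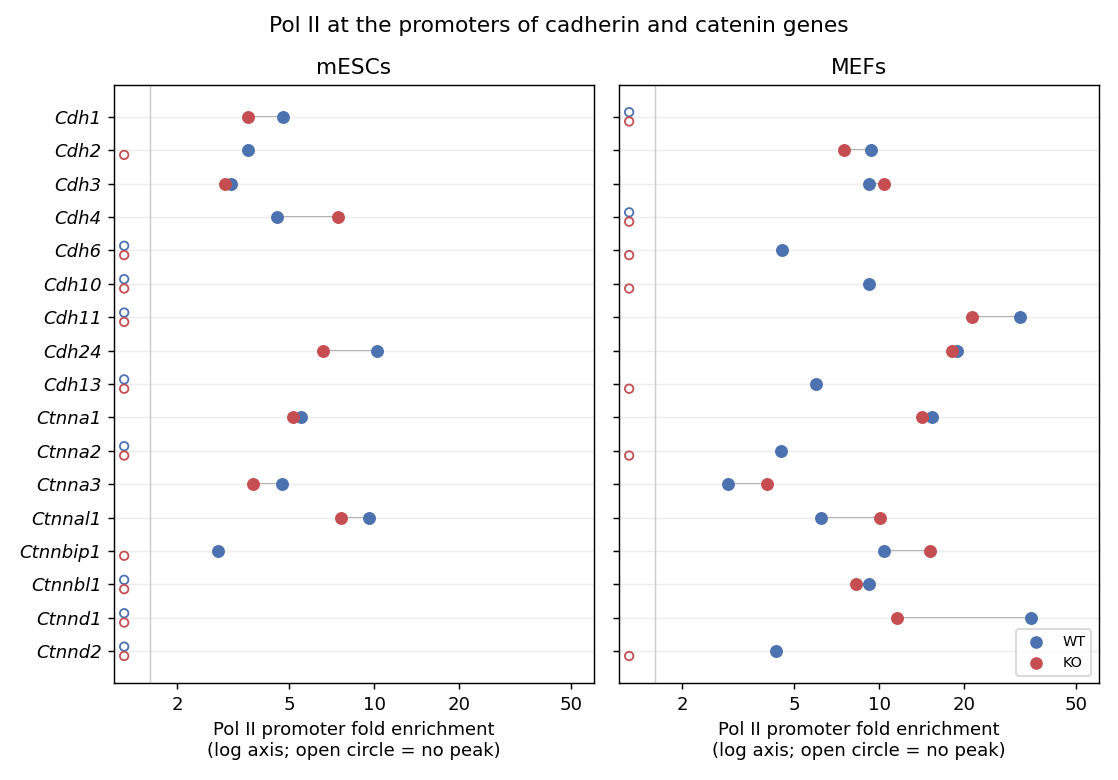
Pol II promoter fold enrichment (log axis) of the 17 genes with a peak in at least 1 library, in mESCs (left) and MEFs (right). Each point is 1 library, WT in blue and Atxn7l3-/- in red, a grey line joins both values of a gene, and open circles mark no peak. Cdh6, Cdh10, Cdh13, Ctnna2 and Ctnnd2 have a WT point and an open red circle in MEFs, and Ctnnd1 has the widest gap, 34.5 against 11.5.

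Among WT cells, Cdh1 and Cdh4 had a promoter peak in mESCs and none in MEFs (2 genes, background 1.9%). Cdh6, Cdh10, Cdh11, Cdh13, Ctnna2, Ctnnbl1, Ctnnd1 and Ctnnd2 had one in MEFs and none in mESCs (8 genes, background 21.9%). The other occupied genes, Cdh2, Cdh3, Cdh24, Ctnna1, Ctnna3, Ctnnal1 and Ctnnbip1, had one in both.

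Of the 5 type I cadherins, Cdh1 and Cdh4 had promoter Pol II in mESCs alone, Cdh2 and Cdh3 in both cell types and Cdh15 in neither. Cdh1 (E-cadherin, ENSMUSG00000000303, mm10 chr8:106603351-106670246, plus strand) had a promoter fold enrichment of 4.77 in WT and 3.57 in Atxn7l3-/- mESCs and no peak in either MEF library, where the nearest Pol II peaks lay 39156 and 39394 bp from its TSS. H2Bub1 covered 66.4% of Cdh1 in WT and 66.9% in Atxn7l3-/- mESCs, and 0% in both MEF libraries. The share in mESCs was alike although its layout differed. WT had 10 peaks, the widest 15.8 kb, and Atxn7l3-/- cells had 3, of which the widest spanned 43.0 kb without a gap. With only the peaks of a -log10 q of at least 3, the shares were 17.3% in WT and 59.8% in Atxn7l3-/- mESCs, so the near equality rests on weak WT peaks.

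Cdh3 (P-cadherin, ENSMUSG00000061048, chr8:106510891-106557297, plus strand) ends 46.1 kb upstream of Cdh1 and was occupied in both cell types. Its promoter fold enrichment was 3.11 and 2.96 in WT and Atxn7l3-/- mESCs, and 9.24 and 10.4 in WT and Atxn7l3-/- MEFs. H2Bub1 covered 19.2% and 10.4% of the gene in WT and Atxn7l3-/- mESCs, and 0% and 55.3% in MEFs. In Atxn7l3-/- MEFs this was 1 unbroken peak of 26.2 kb that began at -508 bp from the TSS, over a gene that carried Pol II in WT MEFs without any H2Bub1 peak. Of the mesothelial markers, 4 had H2Bub1 in Atxn7l3-/- MEFs and 0 in WT MEFs, and their part in this difference was not tested.

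Cdh2 (N-cadherin, ENSMUSG00000024304, chr18:16588877-16809246, minus strand) had a promoter fold enrichment of 3.58 in WT mESCs and no peak in Atxn7l3-/- mESCs. In MEFs it was 9.39 in WT and 7.52 in Atxn7l3-/- cells. H2Bub1 covered 1.10% and 0.123% of Cdh2 in WT and Atxn7l3-/- mESCs. In MEFs it covered 1.54% in WT, as 5 small peaks from 7461 to 25949 bp downstream of the TSS, and 34.8% in Atxn7l3-/- cells, as 18 peaks that reached 148003 bp. At a -log10 q of at least 3 the MEF shares were 0% and 18.4%, and both mESC shares were 0%. The first 20 kb of Cdh2 were 6.00% covered in WT MEFs and 100% in Atxn7l3-/- MEFs. Cdh2 thus had more H2Bub1 coverage in Atxn7l3-/- MEFs with a slightly lower Pol II value at its promoter.

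Cdh4 (R-cadherin, ENSMUSG00000000305, chr2:179442431-179899373, plus strand) had promoter fold enrichments of 4.53 in WT and 7.46 in Atxn7l3-/- mESCs. Of the 7 members with peaks in both, it was the 1 whose value was at least 1.5 times higher in Atxn7l3-/- cells (background 10.8%). Its H2Bub1 share was 3.19% in WT and 39.6% in Atxn7l3-/- mESCs, or 14.6 kb and 181.0 kb, the greatest covered length of any member in any library. WT had 21 peaks, none wider than 2.50 kb, and Atxn7l3-/- cells had 61 peaks up to 28.6 kb. Most of these were weak. At a -log10 q of at least 3 the shares were 0% and 6.24%. No Pol II or H2Bub1 was found on Cdh4 in MEFs. Cdh15 (M-cadherin of muscle) had no Pol II promoter peak in any library, and its H2Bub1 share was 19.8% in WT and 13.2% in Atxn7l3-/- mESCs and 0% in MEFs, from peaks that could belong to Gm20388, a gene model that spans it.

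**Figure D2:**
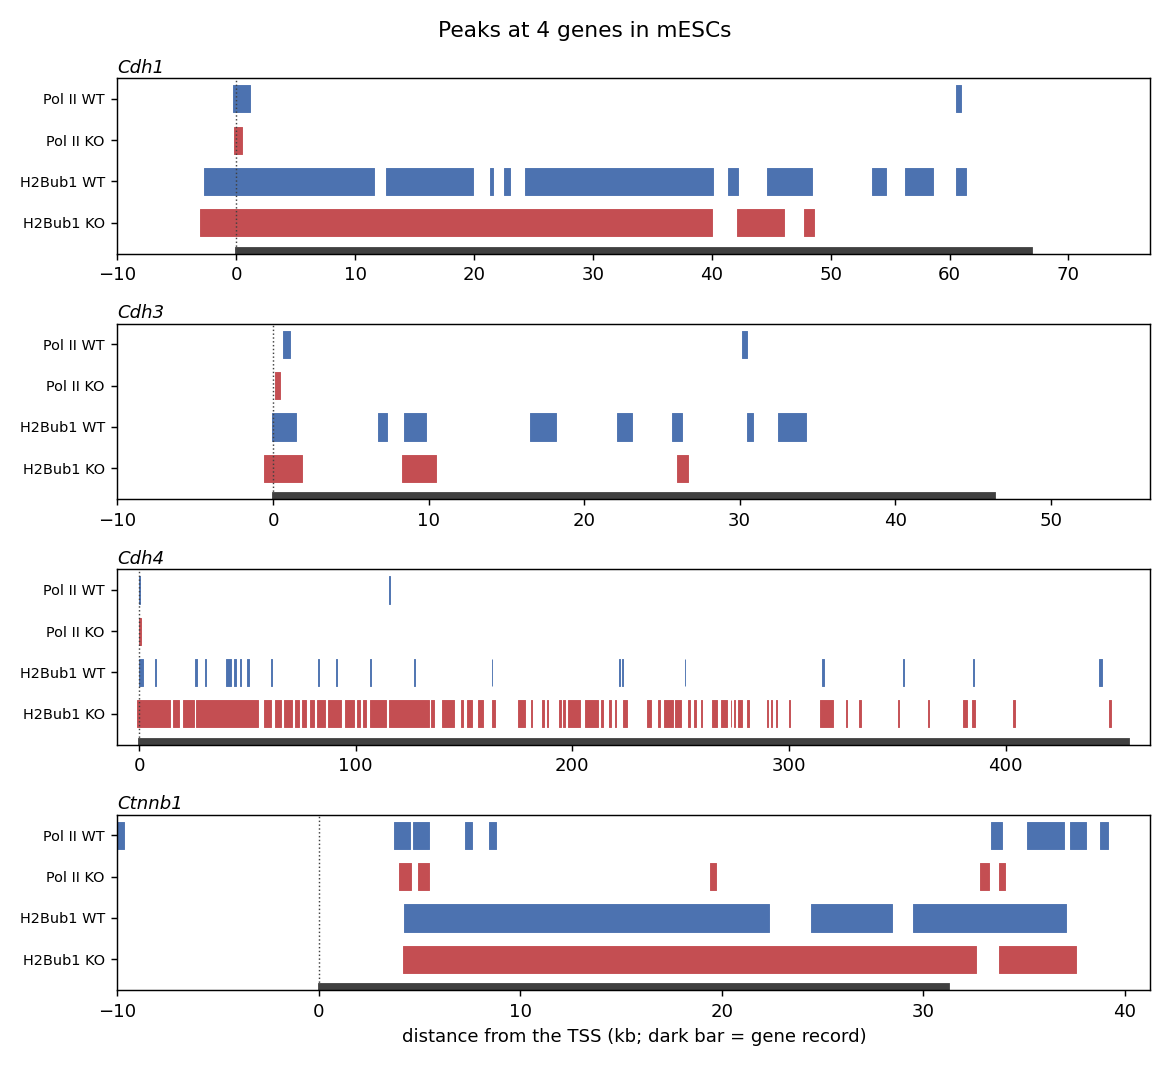
Peaks at Cdh1, Cdh3, Cdh4 and Ctnnb1 in mESCs by distance from the TSS (kb). Each bar is 1 called peak, WT in blue and Atxn7l3-/- in red, and the dark bar is the gene. On Cdh1 the 10 WT H2Bub1 peaks correspond to 3 in Atxn7l3-/- cells, on Cdh4 the H2Bub1 peaks number 21 and 61, and on Ctnnb1 all marks begin about 4 kb inside the gene record.

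Of the 13 type II cadherins, Cdh11 and Cdh24 kept Pol II in both MEF libraries. Cdh11 (ENSMUSG00000031673, chr8:102632095-102785642, minus strand), a cadherin of mesenchyme and bone-forming cells, had a promoter fold enrichment of 31.7 in WT and 21.4 in Atxn7l3-/- MEFs and no peak in mESCs. Pol II peaks covered 130.8 kb of its body (from 1000 bp downstream of the TSS to the end of the gene) in WT MEFs and 42.2 kb in Atxn7l3-/- MEFs, that is 85.8% and 27.6% of the body. The number of peaks was similar, 61 and 68. The Atxn7l3-/- peaks were thus shorter and set apart, while in WT they nearly joined.

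On the same gene the H2Bub1 lists differed the other way. H2Bub1 covered 42.5% of Cdh11 in WT MEFs as 12 peaks and 71.1% in Atxn7l3-/- MEFs as 4 peaks, of which 1 ran for 104.0 kb. This peak began at -2249 bp from the TSS, where the first WT peak began at 528 bp. At a -log10 q of at least 3 the shares were 1.45% and 66.3%. H2Bub1 and Pol II were both without a peak on Cdh11 in mESCs.

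Cdh24 (ENSMUSG00000059674, chr14:54631231-54641364, minus strand) had promoter fold enrichments of 10.3 and 6.59 in WT and Atxn7l3-/- mESCs, the 1 member of 7 at least 1.5 times lower there (background 10.9%). In MEFs they were 18.9 and 18.2. H2Bub1 covered 65.6% and 77.9% of the gene in mESCs and 0% and 16.1% in MEFs. The Atxn7l3-/- H2Bub1 peaks at its TSS came from upstream, beginning at -12979 bp in mESCs and -19795 bp in MEFs over Acin1, the gene that ends just before Cdh24, and the gene model Gm17606 also overlaps it. Signal of these genes and of Cdh24 cannot be told apart here.

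The other type II cadherins were little marked. Cdh7, Cdh8, Cdh9, Cdh12, Cdh18, Cdh19 and Cdh20, which are mainly known from the nervous system, and the gut cadherin Cdh17 had no Pol II promoter peak and no H2Bub1 in any library (8 of 32 genes, background 28.7%). Cdh18 had 1 Pol II peak of fold enrichment 3.18 in WT MEFs, 487013 to 487561 bp downstream of the TSS of its gene record, over the start of a shorter transcript. Cdh22 had no promoter peak, 1 Pol II body peak in WT MEFs, and an H2Bub1 share of 2.24% and 2.44% in WT and Atxn7l3-/- mESCs. Cdh5 (VE-cadherin of endothelium) had no promoter peak and an H2Bub1 share of 2.93% in Atxn7l3-/- mESCs alone.

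Outside the classical types, Cdh16, Cdh23 and Cdh26 had no promoter peak in any library. H2Bub1 covered 0.310 and 2.36 kb of Cdh16, the kidney cadherin, in WT and Atxn7l3-/- mESCs and none of it in MEFs. Cdh26 carried 0.823% in Atxn7l3-/- mESCs alone. Cdh23, a cadherin of the hair cells of the inner ear, had 8 Pol II body peaks in each MEF library, but 4 of the WT and 3 of the Atxn7l3-/- peaks lay on Vsir, a gene inside it. Its H2Bub1 share in Atxn7l3-/- MEFs, 3.11%, was 0% once the bases of other genes were left out.

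The promoter peaks present in WT and missing in Atxn7l3-/- MEFs were those of Cdh6, Cdh10, Cdh13, Ctnna2 and Ctnnd2. Cdh6 (K-cadherin, chr15:13028701-13173675, minus strand) had a WT fold enrichment of 4.51, and the nearest Atxn7l3-/- peak lay 348433 bp from its TSS. Cdh10 (chr15:18818947-19014236, plus strand), known from brain, had the highest of the 5 values, 9.22, and its nearest Atxn7l3-/- peak was 5993705 bp away. Cdh13 (T-cadherin, which has a lipid anchor in place of a tail, chr8:118283733-119324921, plus strand) had 5.96, with the nearest at 481248 bp. Ctnna2 (αN-catenin of neurons, chr6:76881637-77979699, minus strand) had 4.50 and 3943698 bp. Ctnnd2 (δ-catenin of neurons, chr15:30172593-31029341, plus strand) had 4.33 and 1051301 bp. The missing peaks therefore did not sit just outside the promoter window.

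All 5 had WT peaks of 405 to 873 bp, none had a promoter peak in mESCs, and the same 5 lacked the Atxn7l3-/- peak with a narrower window (100 bp upstream to 300 bp downstream), with a -log10 q of at least 3 and with equal numbers of peaks. They were among the weaker and longer genes. All 5 were over 100 kb long, as were 10 of the 15 occupied members, and over all genes of that length with a WT peak 13.3% had none in Atxn7l3-/- MEFs. All 5 had a WT fold enrichment under 10, as had 10 of the 15 occupied members, and over all promoters with such a value 22.6% had none. Over genes that were both, it was 31.4%, beside 5 of 8 members. The fold limit of 10 was chosen after the data were seen and takes in all 5, so this comparison cannot serve as a test. Cdh6, Cdh10, Ctnna2 and Ctnnd2 (4 of 5) had no H2Bub1 in either MEF library, as had 73.8% of all genes with a WT promoter peak alone, and Cdh13 had 0.493 kb in WT only. In Ctnnd2, H2Bub1 was found in mESCs, over 0.549% and 0.501% of the gene.

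Their promoter sequences differ widely in CG dinucleotides, and are shown because Pol II was called at these starts in WT MEFs alone. RefSeq (GRCm38.p6) gives 300 bases, 250 before and 50 after each start, for 21 of the 32 genes. Sequences are written 5′ to 3′ on the gene's strand with every CG in capitals, at chr15:13173626-13173925 (Cdh6, minus), chr15:18820079-18820378 (Cdh10, plus), chr6:77979618-77979917 (Ctnna2, minus), chr15:30172284-30172583 (Ctnnd2, plus) and, as a promoter that kept Pol II, chr4:56865162-56865461 (Ctnnal1, minus).
Cdh6: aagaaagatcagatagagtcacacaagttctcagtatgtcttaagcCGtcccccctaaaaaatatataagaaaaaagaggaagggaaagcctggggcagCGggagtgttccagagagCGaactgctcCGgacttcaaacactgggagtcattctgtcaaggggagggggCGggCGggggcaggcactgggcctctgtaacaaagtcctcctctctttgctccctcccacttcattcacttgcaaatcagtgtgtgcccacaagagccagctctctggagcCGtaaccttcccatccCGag
Cdh10: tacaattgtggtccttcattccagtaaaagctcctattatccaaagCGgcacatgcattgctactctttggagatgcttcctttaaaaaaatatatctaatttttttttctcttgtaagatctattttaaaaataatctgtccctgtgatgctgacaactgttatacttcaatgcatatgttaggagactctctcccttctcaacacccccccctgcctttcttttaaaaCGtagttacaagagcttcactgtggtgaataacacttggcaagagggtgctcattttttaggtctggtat
Ctnna2: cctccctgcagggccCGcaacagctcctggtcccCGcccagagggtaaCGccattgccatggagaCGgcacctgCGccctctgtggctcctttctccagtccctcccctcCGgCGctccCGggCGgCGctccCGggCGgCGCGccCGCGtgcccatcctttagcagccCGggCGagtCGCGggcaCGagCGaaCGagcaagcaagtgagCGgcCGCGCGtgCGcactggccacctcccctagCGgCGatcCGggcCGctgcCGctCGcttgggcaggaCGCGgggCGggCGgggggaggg
Ctnnd2: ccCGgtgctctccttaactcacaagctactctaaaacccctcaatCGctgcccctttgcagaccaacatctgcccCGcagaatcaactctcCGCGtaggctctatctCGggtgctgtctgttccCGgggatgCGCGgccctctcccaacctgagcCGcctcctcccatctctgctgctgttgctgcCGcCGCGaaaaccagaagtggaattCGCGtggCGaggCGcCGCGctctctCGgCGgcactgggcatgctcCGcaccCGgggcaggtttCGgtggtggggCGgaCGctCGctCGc
Ctnnal1: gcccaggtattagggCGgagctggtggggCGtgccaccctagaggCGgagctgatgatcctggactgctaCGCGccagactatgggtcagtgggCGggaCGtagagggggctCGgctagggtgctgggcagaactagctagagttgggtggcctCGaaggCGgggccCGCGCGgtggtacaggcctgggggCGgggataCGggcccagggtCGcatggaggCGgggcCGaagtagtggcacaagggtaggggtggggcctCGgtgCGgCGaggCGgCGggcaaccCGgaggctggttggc
The counts of CG were 8 in Cdh6, 2 in Cdh10, 38 in Ctnna2, 28 in Ctnnd2 and 24 in Ctnnal1. A CG was present in 94.8% of the 31396 autosomal promoters of the table, whose median count was 7. The RefSeq start of Cdh10 lies 1382 bp downstream of the TSS of its gene record, and the second WT MEF peak of this gene, from 1203 to 1776 bp and with a fold enrichment of 4.53, spans it. The higher promoter peak of Cdh10 (9.22), with its summit at -228 bp from the TSS of the record, lies outside the sequence shown. The counts at the 4 starts called in WT alone thus ranged from 2 to 38.

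The E-box CACCTG, searched on both strands, is the recognition motif known for Snail and ZEB repressors of Cdh1. It was found in 4 of the 28 promoters of members in the table (14.3%) and in 20.5% of all autosomal promoters there. Ctnna2 had it once, from position -182 relative to the RefSeq start, and the 3 starts of Cdh7 once each. Cdh1, Cdh2, Cdh3, Cdh4, Cdh5, Cdh11, Cdh13, Cdh16, Cdh17, Cdh19 and Ctnna1 had no entry. Over the 21 genes with an entry, taking the start closest to the gene record, the median CG count was 26 for the 12 with Pol II within 1000 bp of that same start in at least 1 library (2 to 46) and 9 for the 9 without (4 to 38), and the ranges overlap.

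Among the α-catenins, Ctnna1 (ENSMUSG00000037815, chr18:35118859-35254779, plus strand), the form made in most tissues, was occupied in every library. Its promoter fold enrichment was 5.51 and 5.15 in WT and Atxn7l3-/- mESCs and 15.4 and 14.2 in MEFs. H2Bub1 covered 20.5% and 28.3% in mESCs and 29.0% and 82.2% in MEFs. In WT MEFs the mark lay mostly in the first part of the gene, with 100% of the first 20 kb and 16.7% of the rest covered. In Atxn7l3-/- MEFs 79.1% of the rest was covered as well. Pol II in the body went the other way, from 12 peaks and 3.91 kb in WT MEFs to 1 peak and 0.276 kb in Atxn7l3-/- MEFs.

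Ctnna3 (αT-catenin, known from heart) had promoter fold enrichments of 4.73 and 3.73 in mESCs and 2.92 and 4.02 in MEFs, and H2Bub1 was nearly absent, with a single peak of 0.397 kb in WT mESCs. It was the only member with Pol II at the promoter and no H2Bub1 in either Atxn7l3-/- library. Ctnnal1 (α-catulin) had 9.63 and 7.62 in mESCs. In MEFs it had 6.23 and 10.1, the 1 member of 10 at least 1.5 times higher in Atxn7l3-/- MEFs (background 5.76%). Its H2Bub1 share was 2.93% and 16.7% in mESCs, and 0% and 35.3% in MEFs, the latter as 1 peak of 19.4 kb from the TSS.

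β-catenin itself had no promoter peak by the gene record, because the record of Ctnnb1 (ENSMUSG00000006932, chr9:120929216-120960507, plus strand) begins 4184 bp before the first RefSeq start. Within 1000 bp of that start the Pol II fold enrichment was 7.27 and 12.7 in WT and Atxn7l3-/- mESCs and 49.9 and 35.5 in MEFs. The Pol II peaks closest to the TSS of the record began at 3747, 3956, 3859 and 3875 bp, and the first H2Bub1 peaks at 4245, 4199, 4147 and 4099 bp, in the order WT and Atxn7l3-/- mESCs, WT and Atxn7l3-/- MEFs. All 8 lists therefore place the start of the signal beside the RefSeq start, whose promoter (chr9:120933150-120933449, plus strand) has 46 CG.
Ctnnb1: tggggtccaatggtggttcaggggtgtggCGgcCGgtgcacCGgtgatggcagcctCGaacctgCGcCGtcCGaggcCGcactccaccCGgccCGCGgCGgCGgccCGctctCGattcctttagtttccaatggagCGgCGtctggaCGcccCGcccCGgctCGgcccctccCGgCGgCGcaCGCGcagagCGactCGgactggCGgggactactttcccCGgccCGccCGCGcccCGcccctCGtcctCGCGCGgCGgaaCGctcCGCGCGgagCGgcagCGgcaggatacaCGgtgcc
H2Bub1 covered 76.3% and 86.6% of Ctnnb1 in mESCs and 69.6% and 83.0% in MEFs, the highest share of all members in both WT libraries. Outside Ulk4, which overlaps its end, the shares were 75.6% and 83.9%, and 79.6% and 84.3%, and there neither difference reached 10 points. Pol II covered 2243 and 1449 bp of the body in mESCs and 13986 and 5260 bp in MEFs, where the body by the gene record takes in the peaks at the RefSeq start. From 1000 bp downstream of the RefSeq start it covered 946 and 557 bp in mESCs and 12661 and 3951 bp in MEFs.

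Ctnnbip1 (ICAT, which keeps β-catenin from TCF factors, ENSMUSG00000028988, chr4:149518236-149566437, plus strand) had a weak promoter peak in WT mESCs (2.79) and none in Atxn7l3-/- mESCs. With equal numbers of peaks, or with a -log10 q of at least 3, the WT peak was not in the list either. In MEFs the values were 10.4 and 15.1. Its H2Bub1 share was 25.1% and 59.0% in mESCs and 2.19% and 62.3% in MEFs, the largest difference of any member in MEFs (60.1 points). Ctnnbl1, which despite its name is known as a splicing-associated protein, had no promoter peak in mESCs and 9.19 and 8.28 in MEFs. H2Bub1 covered 7.20% and 27.9% of it in mESCs and 11.7% and 27.5% in MEFs.

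Ctnnd1 (p120-catenin, which holds cadherins at the membrane, ENSMUSG00000034101, chr2:84600071-84650765, minus strand) had no promoter peak in mESCs. In MEFs its fold enrichment was 34.5 in WT, the highest of the members at the TSS of the gene record, and 11.5 in Atxn7l3-/- cells, which made it the 1 member of 10 at least 1.5 times lower in MEFs (background 23.9%). Its body had 29 Pol II peaks over 25.4 kb in WT MEFs and 8 over 4.22 kb in Atxn7l3-/- MEFs. H2Bub1 covered 11.3% and 52.5% in mESCs and 35.8% and 83.3% in MEFs, where a peak of 40.5 kb began at -2347 bp from the TSS. The mESC difference, 41.2 points, was the largest of the members there, without a Pol II peak within 15297 bp of the TSS in either genotype. The gene model Gm28635 spans Ctnnd1, and a further RefSeq start at -8212 bp had no Pol II peak within 1000 bp in any library.

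**Figure D3:**
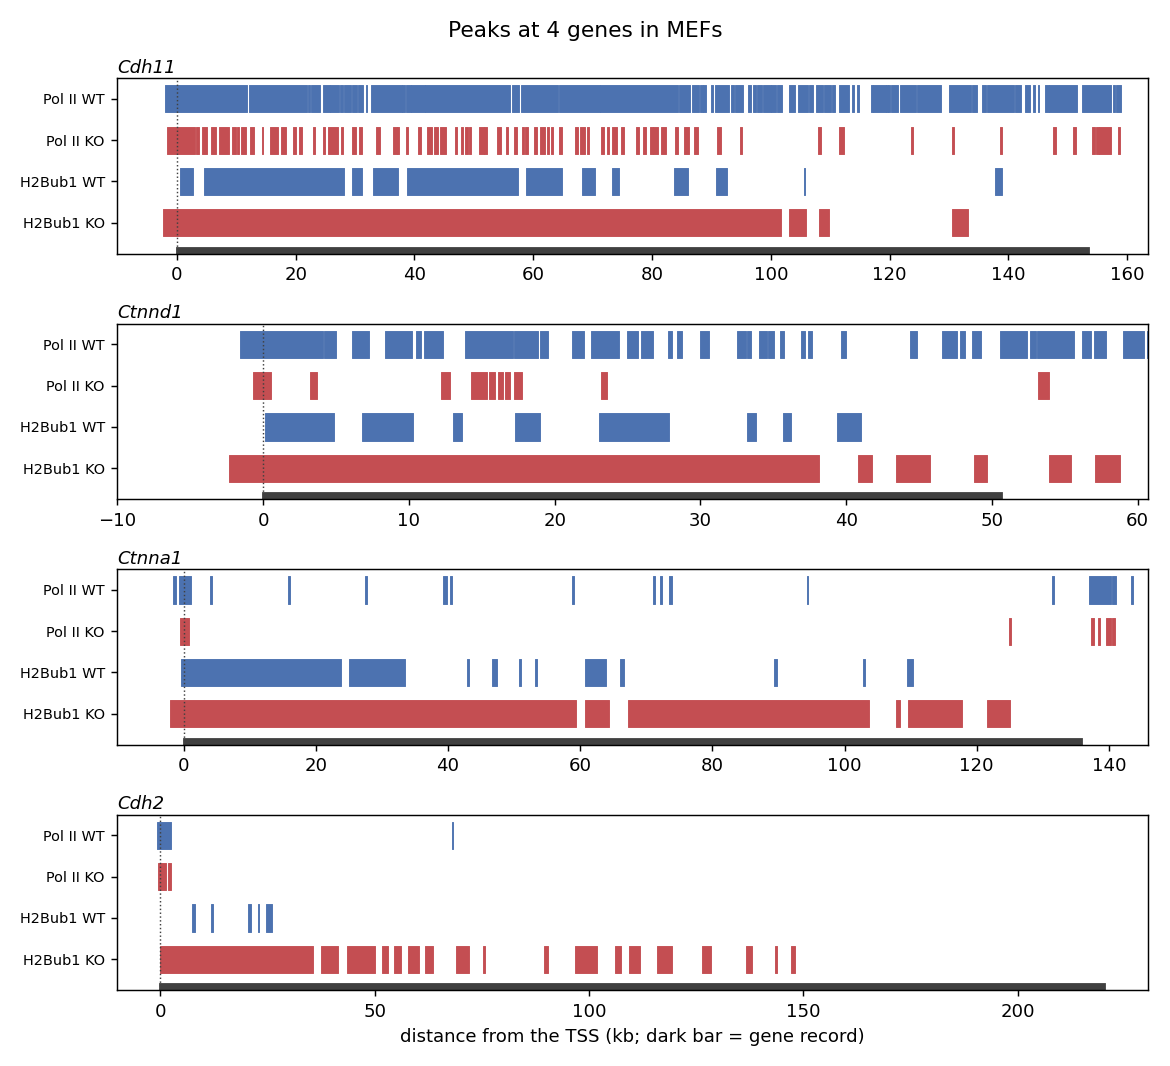
Peaks at Cdh11, Ctnnd1, Ctnna1 and Cdh2 in MEFs by distance from the TSS (kb). Each bar is 1 called peak, WT in blue and Atxn7l3-/- in red, and the dark bar is the gene. In each gene the widest Atxn7l3-/- H2Bub1 peak (104.0, 40.5, 61.5 and 35.8 kb) is wider than the widest WT one (23.5, 4.80, 24.2 and 1.32 kb) and the Atxn7l3-/- Pol II peaks cover less.

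Counted together, an H2Bub1 peak lay in 18 members in WT mESCs (background 55.7%), 18 in Atxn7l3-/- mESCs (background 62.1%), 8 in WT MEFs (background 31.7%) and 11 in Atxn7l3-/- MEFs (background 54.3%). At a -log10 q of at least 3 the counts were 5 and 11 in WT and Atxn7l3-/- mESCs and 3 and 11 in MEFs, so the equal counts in mESCs rest on weak peaks. The backgrounds just given are for the full lists and do not apply to these stricter counts. The H2Bub1 share was at least 10 percentage points higher in Atxn7l3-/- than in WT cells at 7 of 32 genes in mESCs (background 32.7%) and at 10 in MEFs (background 46.2%). It was at least 10 points lower at 0 genes in mESCs (background 2.96%) and 0 in MEFs (background 0.115%). With equal numbers of peaks in both lists it was at least 10 points lower in mESCs at Cdh3 (19.2% and 8.76%) and Cdh15 (19.8% and 8.01%), and over the first 20 kb at Cdh2 (12.2% and 1.36%). The 7 in mESCs were Cdh4, Cdh24, Ctnnal1, Ctnnb1, Ctnnbip1, Ctnnbl1 and Ctnnd1. With a -log10 q of at least 3 the call ended at Cdh4, at Ctnnal1 (0% and 4.33%) and at Ctnnbl1 (0% and 1.59%), and Cdh1 was called. The 10 in MEFs were Cdh2, Cdh3, Cdh11, Cdh24, Ctnna1, Ctnnal1, Ctnnb1, Ctnnbip1, Ctnnbl1 and Ctnnd1. Split by family, the count in MEFs was 4 of 23 cadherins and 6 of 9 Ctnn genes. The share of all members called was below the background in both cell types. Among the 19 members of at least 100 kb the count was 2 in mESCs and 4 in MEFs, beside 22.4% and 44.5% of all genes of that length.

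Among genes with an H2Bub1 peak in either genotype, the median share of the 20 members in mESCs was 3.06% in WT and 11.8% in Atxn7l3-/- cells, beside 10.2% and 28.8% over all genes and 1.18% and 5.05% over genes of at least 100 kb. For the 12 members in MEFs it was 1.86% and 45.3%, beside 2.47% and 50.9% over all genes and 1.04% and 28.7% over the long genes. The 95% intervals of the 4 member medians (1.10% to 19.8%, 1.76% to 39.6%, 0% to 35.8% and 16.1% to 82.2%, in the same order) hold both the value of all genes and that of the long genes. These intervals are wide and genes of 1 library are not replicates, so no likeness to either value is drawn from them. The share was higher in Atxn7l3-/- cells at 14 of 20 members in mESCs (background 83.1%) and at 11 of 12 in MEFs (background 98.7%). In mESCs it was lower at 6 members (background 15.1%), Cdh2, Cdh3, Cdh13, Cdh15, Ctnna3 and Ctnnd2. Of these, Cdh13, Ctnna3 and Ctnnd2 differed by -0.0613, -0.0252 and -0.0484 points. In MEFs Cdh13 was the 1 member with a lower share (background 0.969%). Summed over the members, H2Bub1 covered 176.8 kb in WT and 432.4 kb in Atxn7l3-/- mESCs, and 167.5 and 496.9 kb in MEFs. The ratio in mESCs was 2.45, or 1.55 without Cdh4, beside 2.02 over all genes and 2.61 over genes of at least 100 kb. In MEFs it was 2.97, beside 4.46 and 6.19.

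**Figure D4:**
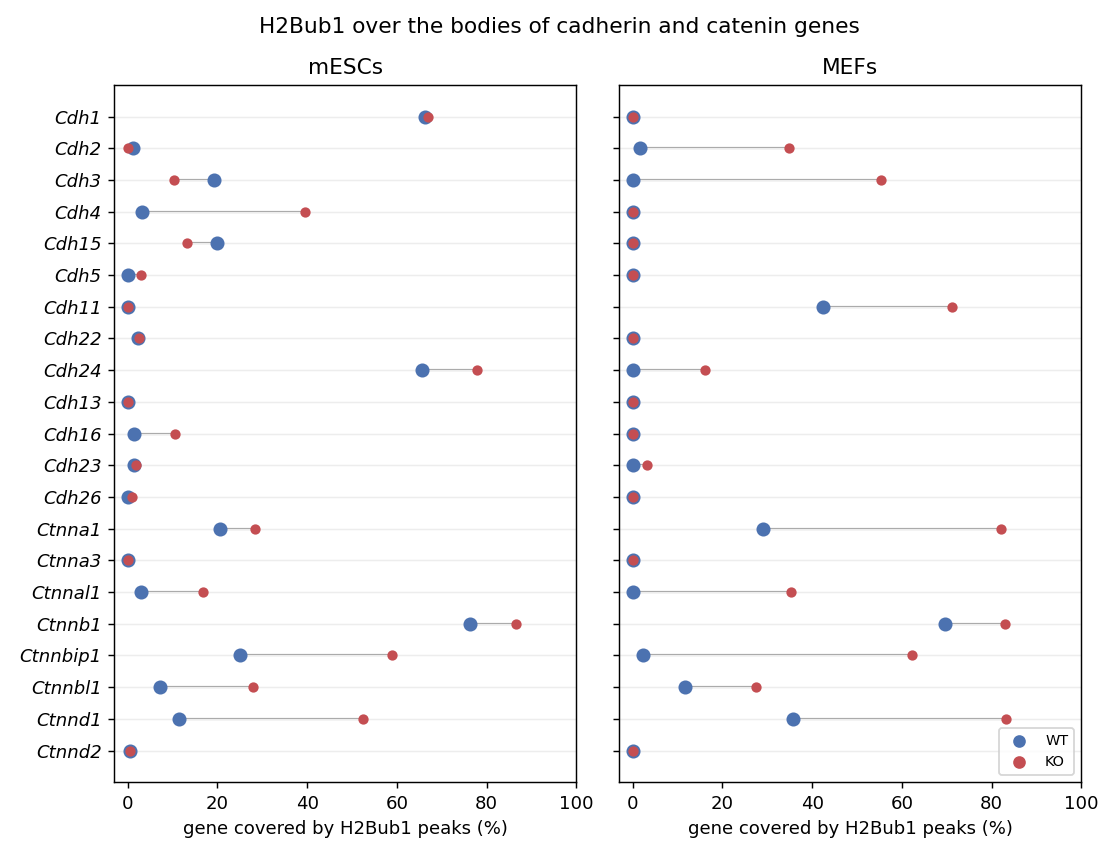
Share of each gene covered by H2Bub1 peaks (%), for the 21 genes with a peak in at least 1 library, in mESCs (left) and MEFs (right). Points are single libraries, WT in blue (larger) and Atxn7l3-/- in red (smaller), joined by a line. The red point lies to the right at 14 genes in mESCs and 11 in MEFs, and Cdh1 has both points at 66 to 67% in mESCs and at 0% in MEFs.

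In the bodies of the genes Pol II coverage differed the other way. Beyond 1000 bp from the TSS, 16 members had a Pol II peak in WT MEFs (background 42.2%) and 8 in Atxn7l3-/- MEFs (background 34%), and in mESCs 10 (background 20.9%) and 3 (background 13.6%). Of genes of at least 100 kb, 58.1% had one in WT and 44.3% in Atxn7l3-/- MEFs, beside 11 and 4 of 19 members. In mESCs the long genes gave 25.5% and 19.2%, beside 5 and 1 of the 19. With the body counted from 300 bp the mESC counts over all members were 12 and 8, and the backgrounds above do not apply to that start. A promoter peak that reaches past 1000 bp is included. Of the 8 members with at least 1000 bp covered in WT MEFs, 6 had at most 50% of that coverage in Atxn7l3-/- MEFs (background 52.5%, and 57.3% over genes of at least 100 kb). These were Cdh2, Cdh11, Ctnna1, Ctnna3, Ctnnb1 and Ctnnd1. The exceptions were Cdh3 (3.82 and 3.02 kb) and Cdh23 (6.87 and 5.88 kb), the latter lying partly on Vsir. Summed over the members, coverage was 191.7 kb in WT and 62.5 kb in Atxn7l3-/- MEFs. The ratio was 0.326, or 0.333 without Cdh11, beside 0.591 over all genes and 0.5625 over genes of at least 100 kb. Most of the sum lay in Cdh11 (130.8 and 42.2 kb), Ctnnd1 (25.4 and 4.22 kb) and Ctnnb1 (13.99 and 5.26 kb). The ratio therefore describes mainly these genes, and whether the other members share it was not tested. In mESCs the summed coverage was 7.91 and 2.18 kb, a ratio of 0.275 beside 0.481 over all genes. With equal numbers of peaks in both lists the WT sum in mESCs was 4.51 kb and the ratio 0.483, beside 0.635 over all genes, and the ratio in MEFs was 0.356, beside 0.702. With Ctnnb1 counted from its RefSeq start the sums in mESCs were 6.62 and 1.29 kb and the ratio 0.194. The largest single part was Ctnnbl1, with 5 peaks over 2.33 kb in WT and 0 peaks in Atxn7l3-/- cells. For the promoter values, over members with a peak in both genotypes the median log2 ratio of Atxn7l3-/- to WT was -0.34 in mESCs (7 members) and -0.09 in MEFs (10 members), beside 0.02 and -0.22 over all genes.

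**Figure D5:**
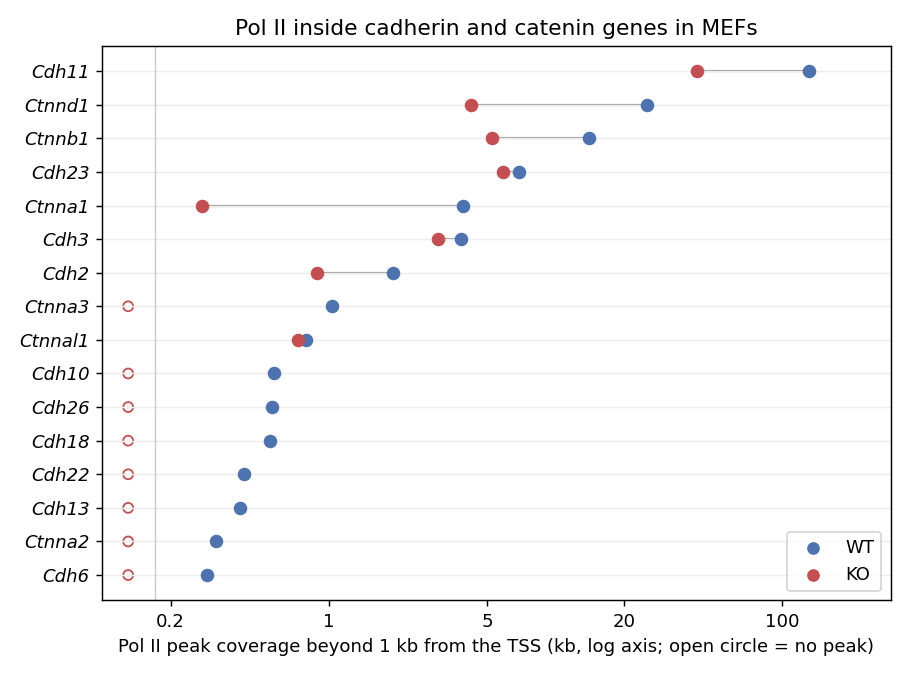
Pol II peak coverage from 1000 bp downstream of the TSS to the gene's end in MEFs (kb, log axis), for the 16 genes with any. Points are single libraries, WT in blue and Atxn7l3-/- in red, and open circles mark no peak. Every WT point lies to the right of the Atxn7l3-/- point, from 130.8 against 42.2 kb in Cdh11 to 0.794 against 0.732 kb in Ctnnal1, and 8 genes have a WT point alone.

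Members with Pol II at the promoter were also counted by H2Bub1. In WT mESCs 9 of 9 members with a Pol II promoter peak also had an H2Bub1 peak (background 91.9%), and in Atxn7l3-/- mESCs 6 of 7 (background 97.8%). In WT MEFs it was 7 of 15 (background 53.4%), where Cdh3, Cdh6, Cdh10, Cdh24, Ctnna2, Ctnna3, Ctnnal1 and Ctnnd2 had Pol II without H2Bub1. In Atxn7l3-/- MEFs it was 9 of 10 (background 93.3%). Of those 8 genes, Cdh3, Cdh24 and Ctnnal1 had Pol II and H2Bub1 in Atxn7l3-/- MEFs, Cdh6, Cdh10, Ctnna2 and Ctnnd2 had neither, and Ctnna3 had Pol II alone.

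Other genes of the same junctions and pathways are given by count. Over all genes, Pol II was at 35.3% and 32.1% of promoters in WT and Atxn7l3-/- mESCs and at 55.3% and 52.3% in MEFs, and H2Bub1 was at least 10 points higher at 32.7% of genes in mESCs and 46.2% in MEFs. Of 12 adherens junction partners, Pol II was at 6 promoters in WT and 8 in Atxn7l3-/- mESCs and at 10 in both MEF libraries. Jup (plakoglobin, 5.44) and Arvcf (3.02) had a peak in Atxn7l3-/- mESCs alone. H2Bub1 was at least 10 points higher at 6 of the 12 in mESCs and 11 in MEFs. Of 13 desmosome genes, 1 had Pol II at its promoter in each library, and H2Bub1 was at least 10 points higher at 1 in each cell type.

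Of 16 genes of β-catenin destruction and TCF function, Pol II was at 11 and 12 promoters in WT and Atxn7l3-/- mESCs and at 15 and 14 in MEFs. Axin2, a Wnt target that acts as a feedback inhibitor, had WT peaks of 3.30 in mESCs and 3.54 in MEFs and none in Atxn7l3-/- cells of either type. Over all genes, 22.8% of WT promoter peaks in mESCs, and 22.6% of those in MEFs with a fold enrichment under 10, had no counterpart either. H2Bub1 covered 85.8% and 85.4% of Axin2 in WT and Atxn7l3-/- mESCs, and 0% and 20.7% in MEFs. Lef1 had a peak in WT MEFs alone (3.77) and Tcf7 in Atxn7l3-/- MEFs alone (3.89). In mESCs Pygo1 (4.62) and Tcf7l2 (5.68) had one in Atxn7l3-/- cells alone. H2Bub1 was at least 10 points higher at 10 of the 16 in mESCs and at 13 in MEFs.

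All 6 repressors of Cdh1 (Snai1, Snai2, Zeb1, Zeb2, Twist1 and Tcf3) had Pol II at the promoter in both MEF libraries, where Cdh1 had none. Their summed fold enrichment was 127.9 in WT and 78.5 in Atxn7l3-/- MEFs, and H2Bub1 was at least 10 points higher in Atxn7l3-/- MEFs at all 6. In mESCs 3 were occupied in WT and 2 in Atxn7l3-/- cells, the difference being Snai1 (4.16 in WT).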

How the data were processed

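The 8 peak lists, 1 for each antibody, cell type and genotype, came from chromatin fixed in 1% paraformaldehyde. The other 8 of 16 labelled samples (inputs and Pol II Ser2P) were not analysed here. Per the submitters' processing notes, bcl2fastq 2.17.1.14, Bowtie 1.0.0, mm10 and MACS2 2.1.1.20160309 were used. The control and the calling thresholds are not given in the sources used here. The authors called narrow Pol II and broad H2Bub1 peaks in single libraries, and the deposited columns are the fold enrichment (a linear ratio over local background) and the -log10 p and -log10 q, with, per the file headers of the narrowPeak format, the summit offset, used in 1 alternative only.

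Positions were made 1-based and compared with GENCODE M21 on the same build, over protein-coding genes of 19 autosomes. Genes were grouped by family and all are named. A promoter was 1000 bp on either side of the TSS, a Pol II body began at 1000 bp, and an H2Bub1 share difference counted from 10 percentage points. The members and lists were chosen with earlier results of these data known. Of each pathway list, only genes whose promoter call differed between genotypes were to be named, and the 6 repressors of Cdh1 were named in addition. The count of bodies with at most 50% of the Pol II coverage, the fold limit of 10, the all-gene body sum at equal list lengths, and the alternatives with RefSeq TSSs (that of the Ctnnb1 body included) and with bases outside other genes were chosen after seeing the data. Alternatives covered windows, TSSs, summits, q, equal list lengths, neighbouring genes, joined peaks and cutoffs. With 1 library per group no test was run. Intervals of percentages are exact Clopper-Pearson at 95%, and those of medians, also at 95%, have values of members as their bounds. The functions were tested on simulated peaks. Python 3.11.15, numpy 2.4.6, pandas 2.3.3, scipy 1.17.1 and matplotlib 3.10.9 were used.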

Additional observations from a re-analysis of the deposited data

Results flagged for a closer look

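By the TSS of the gene record, the difference between Atxn7l3-/- and WT cells had opposite signs in mESCs and MEFs at 5 genes. Each group was 1 library, and the difference between the cell types was not tested. The H2Bub1 share of Cdh2 differed by -0.98 points in mESCs and by 33.2 points in MEFs, and that of Cdh3 by -8.76 and 55.3 points. At a -log10 q of at least 3 both mESC shares of Cdh2 were 0%, so its negative difference was gone, and those of Cdh3 were 3.17% in WT and 0% in Atxn7l3-/- cells. The Pol II promoter fold enrichment of Cdh3 differed by -0.154 and 1.17, that of Ctnna3 by -0.998 and 1.10, that of Ctnnal1 by -2.01 and 3.81, and that of Ctnnbip1, with no peak in Atxn7l3-/- mESCs counted as 0, by -2.79 and 4.76. With equal numbers of peaks, or at a -log10 q of at least 3, the WT mESC peak of Ctnnbip1 was gone, and its negative difference with it. The mESC sign of Cdh3 rests on 2 peaks of near equal fold enrichment, 3.11 in WT and 2.96 in Atxn7l3-/- cells. With equal numbers of peaks, and with the narrow window, the peak in Atxn7l3-/- mESCs alone was left, so the sign was positive in both cell types, and at a -log10 q of at least 3 the WT peak alone was left. At the first RefSeq start of Ctnnb1, which lies outside the promoter window of its gene record, the Pol II fold enrichment differed by 5.41 and -14.4.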

How the results depend on the processing

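No paired analysis was possible because each group held 1 library and the labels give no replicate numbers. Of 184 recomputed counts and medians, 150 stayed within 1.5 times the main count or within the interval of the median. The 5 MEF promoters with Pol II in WT alone were the same 5 under 4 alternatives (narrow window, summits, q and equal numbers), with Cdh18 added in both that used every TSS, and 4 of them (without Ctnna2) lie at least 5000 bp from another gene. In mESCs the count of such promoters went from 2 to 1 (Cdh2) with equal numbers of peaks and became Cdh2 and Cdh3 with the stricter q, and the count with Pol II in Atxn7l3-/- cells alone from 0 to 1 (Cdh3) with equal numbers and with the narrow window. In MEFs the latter went from 0 to 1 with summits in the window, again Cdh3. For the other values the cause was not tested, save where fewer genes, peaks or bases enter.

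With a -log10 q of at least 3, members with H2Bub1 numbered 5 (WT) and 11 (Atxn7l3-/-) in mESCs and 3 in WT MEFs, and the median share in WT mESCs was 0%. With equal numbers of peaks, summed Pol II body coverage in WT mESCs was 4513 bp, and 2 members had an H2Bub1 share at least 10 points lower in Atxn7l3-/- mESCs (0 in the main count). Over the first 20 kb, 1 was at least 10 points lower in mESCs, and the medians were 54.6% in Atxn7l3-/- mESCs and 100% in Atxn7l3-/- MEFs. With Ctnnb1 counted from its RefSeq start, the Atxn7l3-/- sum in mESCs was 1287 bp. With the body from 300 bp, 8 members had Pol II body peaks in Atxn7l3-/- mESCs. A difference of 20 points was reached by 4 members in mESCs. At 10% of the gene body, 8 members in WT mESCs (background 32.8%) and 5 in WT MEFs (background 19.1%) had H2Bub1.

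Only 20 members lie at least 5000 bp from another gene. Of these, promoter peaks were found at 4 and 2 (WT and Atxn7l3-/-) in mESCs and 8 and 4 in MEFs, body peaks at 5 and 1 in mESCs and 8 and 2 in MEFs, and H2Bub1 at 8 and 9 in mESCs and 5 and 4 in MEFs. Body coverage was 3967 and 276 bp in mESCs, and the H2Bub1 share was at least 10 points higher at 3 in mESCs and 4 in MEFs. Unknown read depth limits every count of peaks and every covered length, and peaks missing in 1 list may lie just under its threshold.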
